A study of Mus musculus with 4 samples.

Results

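The LHX5-FLAG peak list of the ChIP-Seq experiment held 545 peaks, and 215 of them carried at least 1 protein-coding gene in the column of overlapped genes. These 215 peaks, taken with no other filter, are described here and compared with the 330 peaks for which that column was empty. The cells were Neuro2a, a mouse neuroblastoma line labelled as strain C57BL/6. They had been stably transfected with *Lhx5* fused to a C-terminal FLAG tag under the Ptight promoter of the Tet-On system, selected with G418, and treated with doxycycline for 24 h to switch the transgene on. The control cells were Neuro2a with a construct for the FLAG tag alone, and the sources used here do not state whether they received doxycycline. Each kind of cell gave an immunoprecipitated library and an input, 4 libraries in all. With 1 library per condition no value has a replicate, the tests compare peaks of these libraries, and the intervals cover counting error only. The lists give positions, genes and distances but no read counts or peak heights, so the depth is unknown, peaks could not be ranked by strength, and the cell type could not be checked against its markers.

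LHX5 is a LIM-homeodomain transcription factor. The homeodomain of this family reads short AT-rich words built around TAATTA, while the LIM domains bind the LDB cofactors that join such factors into larger complexes. LHX5 takes part in the making of neurons in the forebrain and hypothalamus. Factors of this kind often bind far from promoters, and an enhancer inside an intron may act on the gene that holds it or on a neighbour, so a peak inside a gene does not name its target.

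Peaks inside genes were divided by whether they held a TTAA-rich homeodomain word. The word searched was CTAATTAA or TTAATTAA on either strand, the letters of the motif that the study drew from these same peaks, so its presence is not an independent finding. The first sequences shown are the peaks of 3 genes with many sites, read 5′ to 3′ on the forward strand of mm9 with every base of a site in capitals. *Prph* encodes peripherin, an intermediate filament of neurons, *Phactr2* a regulator of phosphatase and actin, and *Rbl1* the pocket protein p107 of the cell cycle.
Prph, chr15:98887098-98887284: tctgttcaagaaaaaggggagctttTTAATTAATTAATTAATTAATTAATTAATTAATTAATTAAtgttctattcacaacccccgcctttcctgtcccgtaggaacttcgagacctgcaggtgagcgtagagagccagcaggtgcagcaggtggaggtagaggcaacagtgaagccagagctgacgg
Phactr2, chr10:12956610-12956818: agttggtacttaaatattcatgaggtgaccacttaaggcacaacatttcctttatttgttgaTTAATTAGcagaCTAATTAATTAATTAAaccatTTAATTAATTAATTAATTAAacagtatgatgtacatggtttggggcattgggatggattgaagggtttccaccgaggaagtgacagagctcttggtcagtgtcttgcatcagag
Rbl1, chr2:156981602-156981774: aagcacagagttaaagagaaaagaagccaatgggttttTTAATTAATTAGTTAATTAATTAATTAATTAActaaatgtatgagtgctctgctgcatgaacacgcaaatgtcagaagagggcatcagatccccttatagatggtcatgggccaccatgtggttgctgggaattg
In these 3 peaks most of the sites overlapped each other in tandem repeats of TTAA, and in the *Phactr2* peak they formed 3 separate stretches. The *Prph* peak held 9 overlapping sites in a run of 41 bp, the *Phactr2* peak 8 sites and the *Rbl1* peak 6 sites.

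The next sequences are peaks with the motif in genes of transcription factors and of neuronal or brain-expressed membrane proteins. *Zfhx4* and *Tshz2* encode zinc finger and homeobox proteins, *Rora* a nuclear receptor needed by Purkinje cells, *Chl1* an L1-type adhesion molecule, *Glra3* a glycine receptor subunit and *Csmd1* a large membrane protein that restrains complement. For *Zfhx4* a stretch of 300 bases with all 6 sites is shown, and the other peaks are whole.
Zfhx4, chr3:5264823-5265122: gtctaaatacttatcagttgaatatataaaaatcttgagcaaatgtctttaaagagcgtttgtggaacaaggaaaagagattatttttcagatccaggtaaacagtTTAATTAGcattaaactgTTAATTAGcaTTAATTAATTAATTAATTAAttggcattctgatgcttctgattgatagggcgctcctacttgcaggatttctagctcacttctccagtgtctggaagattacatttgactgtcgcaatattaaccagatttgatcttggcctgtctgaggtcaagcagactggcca
Rora, chr9:69204576-69204765: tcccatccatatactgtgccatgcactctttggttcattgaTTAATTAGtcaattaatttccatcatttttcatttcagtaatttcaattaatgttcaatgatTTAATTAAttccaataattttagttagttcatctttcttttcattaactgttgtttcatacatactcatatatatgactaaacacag
Tshz2, chr2:169637382-169637612: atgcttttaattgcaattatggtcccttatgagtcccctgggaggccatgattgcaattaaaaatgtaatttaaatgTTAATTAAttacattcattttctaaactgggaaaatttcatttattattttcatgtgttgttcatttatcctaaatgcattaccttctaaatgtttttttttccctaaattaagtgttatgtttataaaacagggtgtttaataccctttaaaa
Chl1, chr6:103576257-103576406: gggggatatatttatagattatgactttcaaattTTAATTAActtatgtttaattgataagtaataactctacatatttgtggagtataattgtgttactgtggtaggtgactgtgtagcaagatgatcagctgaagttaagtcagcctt
Glra3, chr8:58478813-58479012: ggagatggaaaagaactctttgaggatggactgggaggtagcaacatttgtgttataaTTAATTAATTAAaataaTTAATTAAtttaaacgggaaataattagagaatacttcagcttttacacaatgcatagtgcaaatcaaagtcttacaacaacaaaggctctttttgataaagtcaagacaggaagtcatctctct
Csmd1, chr8:16122877-16123069: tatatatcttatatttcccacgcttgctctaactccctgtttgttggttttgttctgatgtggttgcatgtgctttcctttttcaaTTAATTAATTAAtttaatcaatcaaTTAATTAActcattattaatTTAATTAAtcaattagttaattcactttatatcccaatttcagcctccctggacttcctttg
The *Tshz2* and *Chl1* peaks each held 1 site, the *Rora* peak 2 separate sites, the *Glra3* peak 3 and the *Csmd1* peak 4.

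The last sequences show the contrast inside and between genes. *Acsbg1*, which encodes an acyl-CoA synthetase, held 1 peak without the word and 1 peak with 4 sites, and the peaks in *Gli3*, the transcription factor of hedgehog signalling, and in *Wnt3a*, a Wnt ligand, held none.
Acsbg1, chr9:54481552-54481698: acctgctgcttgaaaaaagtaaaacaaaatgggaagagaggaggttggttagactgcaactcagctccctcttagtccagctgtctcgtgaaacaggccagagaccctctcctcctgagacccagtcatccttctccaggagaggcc
Acsbg1, chr9:54504690-54504864: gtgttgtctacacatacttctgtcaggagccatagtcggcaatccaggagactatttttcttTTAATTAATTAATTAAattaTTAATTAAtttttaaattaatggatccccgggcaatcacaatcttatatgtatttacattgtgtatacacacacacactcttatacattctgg
Gli3, chr13:15743547-15743691: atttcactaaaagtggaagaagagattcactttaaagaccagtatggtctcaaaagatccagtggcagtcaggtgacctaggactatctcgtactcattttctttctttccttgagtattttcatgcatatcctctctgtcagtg
Wnt3a, chr11:59100792-59100943: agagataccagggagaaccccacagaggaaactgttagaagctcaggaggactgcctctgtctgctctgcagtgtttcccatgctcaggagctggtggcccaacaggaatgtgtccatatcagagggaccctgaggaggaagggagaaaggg
The GC content was 51.7% in the *Acsbg1* peak without a site and 31.4% in the one with 4 sites, 39.3% in the *Gli3* peak and 55.3% in the *Wnt3a* peak.

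Peaks fell inside genes about as often as bases do. The 215 peaks were 39.4% of the list (95% exact binomial interval 35.3% to 43.7%), while protein-coding genes covered 38.8% of the sequenced bases of the genome. In the FLAG-only list 21 of 56 peaks lay in genes, or 37.5% (24.9% to 51.5%). The 2 lists differed by less than counting error (Fisher's exact test, two-sided, odds ratio 1.09, 95% interval 0.60 to 2.02, p = 0.886, adjusted p = 0.886 over 8 tests). Without peaks on small nuclear and nucleolar RNA genes the direction turned, to 39.3% of 539 LHX5-FLAG peaks against 46.9% of 32 FLAG-only peaks (Fisher's exact test, adjusted p = 0.611). Of the 215 peaks, 4 overlapped a FLAG-only peak. These were the 3 peaks in *Tex14* and a peak of 38500 bp on chromosome 9 that the list assigned to 12 predicted Gm genes.

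The motif was present in 71 of the 215 peaks inside genes, or 33.0% (26.8% to 39.7%), and in 127 of the 330 peaks outside, or 38.5% (33.2% to 44.0%). This difference was within counting error (Fisher's exact test, two-sided, odds ratio 0.79, 95% interval 0.54 to 1.15, p = 0.203, adjusted p = 0.325). For both groups the word was rare in windows of the same length that started 10 kb beyond the peak edges, where 3 of 429 windows beside peaks in genes and 8 of 657 windows beside the other peaks held it. The 71 peaks carried 218 sites, 164 of the form TTAATTAA and 54 of the form CTAATTAA. Of the 71, 18 held 1 site, 53 held 2 or more and 28 held 4 or more. The nearest site lay a median of 12.5 bp from the middle of the peak, and within 50 bp in 67 of 71 peaks. Outside genes the median was 20.5 bp and 114 of 127 peaks had a site within 50 bp. In the genome as a whole the word was found 103 times per Mb inside protein-coding genes and 122 times per Mb outside, and 0.213% of the sites inside genes and 0.204% of those outside lay in an LHX5-FLAG peak. A tandem TTAA run of at least 12 bp was present in 33 of 215 peaks in genes (15.3%) and in 73 of 330 outside (22.1%), which did not pass the test (Fisher's exact test, two-sided, adjusted p = 0.119). The shorter word TAATTA was present in 81 of 215 peaks in genes (37.7%) and in 150 of 330 outside (45.5%) (Fisher's exact test, two-sided, adjusted p = 0.123). Of the 144 peaks in genes without the motif, 10 held TAATTA.

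Of the 218 sites in peaks inside genes, 2 touched an exon, and in the whole genome 2607 of the 102338 sites inside genes (2.55%) were exonic. Of the 215 peaks, 37 overlapped an exon of a protein-coding transcript and 178 lay wholly in introns. The motif was present in 66 of the 178 intronic peaks (37.1%, 30.0% to 44.6%) and in 5 of the 37 exonic peaks (13.5%, 4.54% to 28.8%), a difference larger than counting error (Fisher's exact test, two-sided, odds ratio 0.27, 95% interval 0.08 to 0.74, p = 0.00648, adjusted p = 0.0248). When only peaks on coding sequence were set against the rest, the shares were 14.8% and 35.6% and the adjusted p was 0.119. The 5 exonic peaks with the motif lay in *Prph*, *Vnn1* (a pantetheinase), *Fn1* (fibronectin), *Cnr1* (the CB1 cannabinoid receptor) and *Smarca5* (a chromatin remodelling ATPase). They held 21 sites, of which the 2 that touched an exon were both in *Cnr1*, where all 231 bases of the peak were exonic. In *Prph* 85 of the 187 bases under the peak were exonic, and the TTAA run shown above lay in the adjoining intron. The exonic peaks had a median GC content of 50.6% and the intronic peaks 43.5%. Among peaks at or below the median GC content of all LHX5-FLAG peaks (42.4%), 4 of 9 exonic and 57 of 82 intronic peaks held the motif, and above it 1 of 28 and 9 of 96. Across the genome, exons held 38.8 sites per Mb and introns 108. The part of base composition in this difference was not tested.

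**Figure D1:**
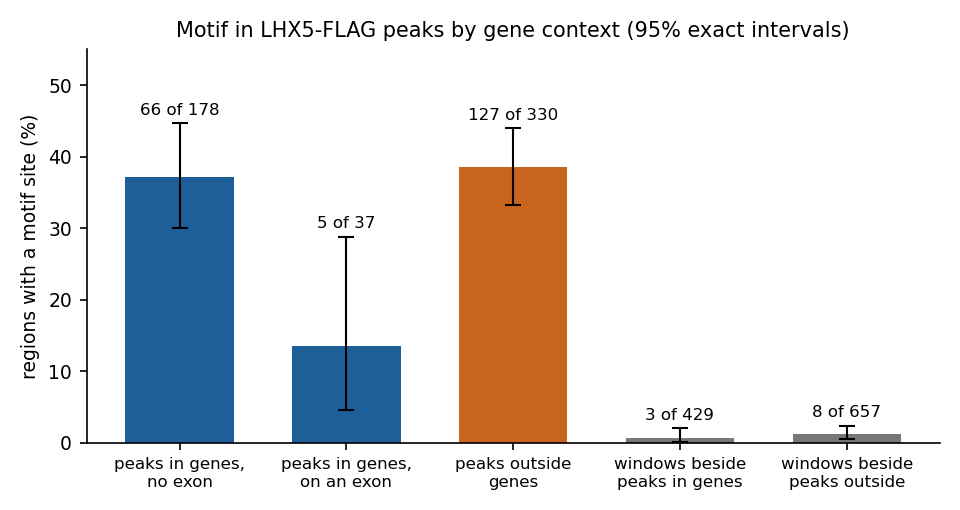
Share of regions with the motif on either strand (percent), for LHX5-FLAG peaks in genes without and with exon overlap, peaks outside genes, and windows of equal length beside them, with counts above the bars and 95% exact binomial intervals as error bars. Intronic peaks stood at 37.1%, peaks outside genes at 38.5% and exonic peaks at 13.5%.

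The peaks in genes were richer in GC than the peaks outside. Their median GC content was 44.0% against 41.0%, and 124 of 215 (57.7%) lay above the median of all peaks against 148 of 330 (44.8%) (Fisher's exact test, two-sided, odds ratio 1.67, 95% interval 1.17 to 2.41, p = 0.00383, adjusted p = 0.0248). Split at the lower quartile instead, the shares were 80% and 71.5% and the adjusted p was 0.0708. The genome itself had a GC content of 43.0% inside protein-coding genes and 41.0% outside, and the windows beside the peaks had medians of 43.9% and 42.9%. Within the genes, peaks with the motif had a median GC content of 33.5% and peaks without it 48.6%, which follows in part from the letters of the motif. The peak with the lowest GC content inside a gene was at 14.7% and the highest at 74%, the latter over *Gng5* and *Dnase2b*. In length no difference was detectable, as 110 of 215 and 159 of 330 peaks exceeded the median of 173 bp (odds ratio 1.13, 95% interval 0.79 to 1.61, Fisher's exact test, two-sided, adjusted p = 0.720).

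**Figure D2:**
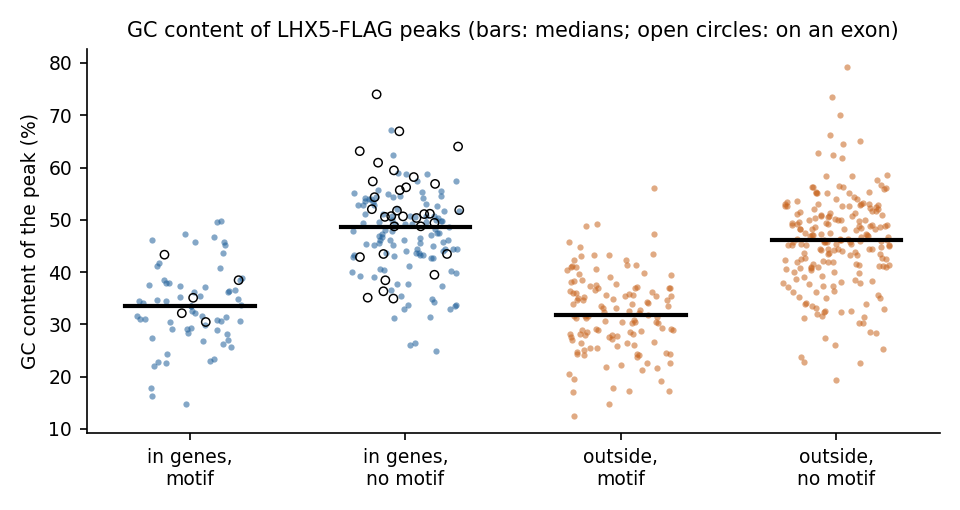
GC content (percent) of each of the 545 LHX5-FLAG peaks, by gene overlap and motif, with horizontal bars at the group medians and open circles for peaks on an exon. Peaks with the motif centred on 33.5% in genes and 31.8% outside, and peaks without it on 48.6% and 46.2%.

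Peaks in genes were less often crowded and less often repetitive. Another peak lay within 100 kb of 11 of 215 peaks in genes (5.12%) and of 39 of 330 outside (11.8%) (Fisher's exact test, two-sided, odds ratio 0.40, 95% interval 0.18 to 0.83, p = 0.00932, adjusted p = 0.0248). The adjusted p was 0.276 at a distance of 10 kb, 0.0721 at 1 Mb, 0.199 when genes of any type were counted, and 0.184 without peaks of mostly repeated sequence. A measure chosen after the values were seen was the share of the 32-bp words of a peak that occur more than once in the genome. More than 50% of the words were repeated in 24 of 215 peaks in genes (11.2%, 7.28% to 16.2%) and in 88 of 330 peaks outside (26.7%, 22.0% to 31.8%) (Fisher's exact test, two-sided, p = 7.81e-06, adjusted p = 7.02e-05 over 9 tests). Of these 24 peaks, 0 held the motif (95% exact interval up to 14.2%), while 15 of the 88 outside genes held it. The 24 included the peaks in *Vmn2r11* and *Vmn2r33*, vomeronasal receptors, and in *Kcnn2*, *Cdh8* and *Cntnap2*.

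The genes around the peaks were long, near the length of genes when each is counted by its bases. The longest gene around each peak had a median length of 125398 bp (95% interval of the median 103249 to 150759 bp). The median over all 22367 protein-coding genes was 15427 bp when each gene counted once, and 136044 bp when each gene counted by its length. Of the 215 peaks, 123 lay in genes over 100 kb, or 57.2% (50.3% to 63.9%), a class with 10.7% of all genes and 59.0% of the summed gene length. For genes over 500 kb these values were 29 peaks, 13.5% (9.22% to 18.8%), against 17.1% of the summed length. The motif was present in 36 of 107 peaks in genes above the median length and in 35 of 108 at or below it (Fisher's exact test, two-sided, odds ratio 1.06, 95% interval 0.58 to 1.94, adjusted p = 0.886).

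**Figure D3:**
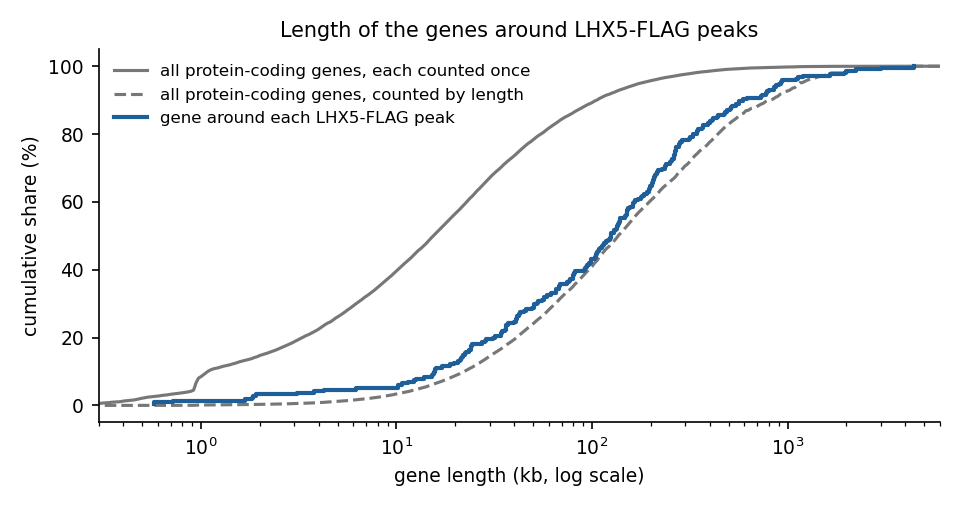
Cumulative share (percent) against gene length (kb, log scale) for the gene around each of the 215 peaks, for all protein-coding genes counted once, and for all protein-coding genes counted by their length. The curve of the peaks ran near the one counted by length, with medians of 125398 bp and 136044 bp, and far from the median of 15427 bp of genes counted once.

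The longest annotated span belonged to AC114005.5 on chromosome 8, at 4434882 bp, and it held 2 peaks, the second of them shared with *Cbfa2t3*, a corepressor of blood cells. *Fgfr2*, a fibroblast growth factor receptor, followed with a span of 3009069 bp for a peak shared with *Oat*. In both, 1 intron made up most of the span, at 4384418 and 2956986 bp. After them came *Cntnap2*, an adhesion molecule of axons, at 2241309 bp, *Macrod2* at 1997658 bp, *Dlg2*, a scaffold of the synapse, at 1945041 bp and *Csmd1* at 1643050 bp. Of these 4 genes, the peaks in *Macrod2* and *Csmd1* held 3 and 4 sites and those in *Cntnap2* and *Dlg2* none. At the short end stood *Hist2h2aa2*, a histone gene of 578 bp, 1110008E08Rik at 721 bp, the Gm genes of chromosome 9 (the longest 1672 bp), *Tmem147* at 1834 bp and *Gm10801* at 1847 bp. None of these 5 peaks held the motif, beside 71 of all 215 peaks in genes (33.0%). Of the words of the *Hist2h2aa2*, Gm and *Gm10801* peaks, 91.4%, 92.2% and 53.7% were repeated.

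The peaks lay along the whole of the genes. Of 212 peaks placed on a protein-coding transcript, 56, 56, 49 and 51 lay in its 4 equal parts, counted from the start. Of the 178 intronic peaks, 47 were in the first intron (26.4%, 20.1% to 33.5%), which on average made up 24.6% of the intron length of the same transcripts. The introns had a median length of 20018 bp. The nearest annotated start of the longest gene around the peak was a median of 26706 bp away, and 11 of 215 peaks were within 1 kb of one. The closest were *Zfp11*, a zinc finger gene (4 bp), *Tmem147* (7 bp) and *Cops7b*, a subunit of the COP9 signalosome (12 bp), with GC contents of 64.0%, 66.9% and 60.9%. Of the 11 peaks, only the one in *March7*, a ubiquitin ligase, held the motif, with 1 site 154 bp from the start as measured from the peak middle. Of all 215 peaks in genes, 71 (33.0%) held the motif.

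Several peaks in one gene were rare. The column named 224 distinct genes, of which 217 were named for 1 peak, 6 for 2 and 1 for 3. The 3 peaks were in *Tex14*, a gene of the bridges between germ cells, and all overlapped FLAG-only peaks and small nuclear or nucleolar RNA genes. *Tex14* held no motif, and 30.6%, 45.3% and 75.9% of the words of its peaks were repeated. In *H60b*, a ligand of a natural killer cell receptor, the peaks lay 83633 bp apart, with 3 sites in one and 0 in the other, and 43.2% and 78.2% of their words were repeated. The peaks in *Acsbg1* were 22992 bp apart with 4 and 0 sites. Those in *Scaper*, an endoplasmic reticulum protein that binds cyclin A, were 228191 bp apart with 1 and 0. The pairs in *March1*, a ubiquitin ligase of immune cells, and *Dym*, a Golgi protein, held no motif. AC114005.5 held 4 sites in one peak and 0 in the other. No gene held the motif in more than 1 peak. Only 7 genes had 2 or more peaks, and 71 of all 215 peaks in genes (33.0%) held the motif. For 7 peaks the column gave 2 or more genes. Besides the chromosome 9, AC114005.5 and *Fgfr2* peaks these were 1700084J12Rik with *Pgcp*, *Zbtb12* with *C2*, *Gng5* with *Dnase2b*, and *Cdk11b* with *Gm10563*, and the motif was absent from those 4.

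The 6 lists of neuronal genes held 16 of the 215 peaks, or 7.44% (4.31% to 11.8%), and 10.9% of the summed length of protein-coding genes. Of these 16 peaks 4 held the motif, beside 71 of all 215 peaks in genes (33.0%). Among axon guidance and neuronal adhesion genes there were 5 peaks, in *Astn1* (a protein of neuron migration along glia), *Chl1*, *Cntnap2*, *Plxna2* (a semaphorin receptor) and *Sema4d* (a semaphorin). Of these *Sema4d* held 4 sites in its second intron, *Chl1* 1 and the other 3 none. Ion channel genes also held 5 peaks, in *Cacna1a* (the P/Q calcium channel), *Clcn7* (a chloride transporter of lysosomes) and the potassium channels *Kcnc2*, *Kcnn2* and *Kcnq5*. Of these 5 peaks 0 held the motif, beside 71 of all 215 peaks in genes (33.0%). In the *Kcnn2* and *Kcnq5* peaks 100% and 88.1% of the words were repeated. The cadherin list had *Cdh8* and *Clstn2*, neither with a site. The synaptic list had *Dlg2* with none and *Odz4*, a teneurin, with 1. *Grm7*, a metabotropic glutamate receptor, held none, while *Glra3* held 3.

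The 5 lists of developmental genes held 11 peaks, or 5.12% (2.58% to 8.97%), and 2.96% of the summed gene length. Of these 11 peaks 5 held the motif, beside 71 of all 215 peaks in genes (33.0%). Homeobox genes included *Zfhx4* with 6 sites, *Tshz2* with 1 and *Pbx3* with none, and the 4 peaks of the list were 1.86% of all (0.509% to 4.69%) against 0.641% of the length. The peak in *Pbx3*, a TALE homeodomain factor, lay in its second intron and held the shorter word TAATTA at 3 places. Other developmental factors were *Rora* with 2 sites, and *Gli3*, *Foxn3* (a forkhead repressor) and *Tcf7l1* (a Wnt effector) with none. The Wnt list had the coreceptor *Lrp6* with 2 sites, *Tcf7l1* and *Wnt3a*. Among LIM proteins and cofactors the peak was in *Pdlim3*, a muscle LIM protein, with 3 sites, and 0 peaks were in a LIM-homeodomain, LMO or LDB gene.

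The other lists were solute carriers (3 peaks), zinc finger genes (3), immune genes (3), olfactory and vomeronasal receptors (2), and ribosomal or proteasome and muscle genes (0 each). Among these *Slc8a1*, the sodium-calcium exchanger, held 5 sites, *Il18rap*, a cytokine receptor subunit, 4, and *Slc15a2*, a peptide transporter, 3. For each of the 17 lists the share of summed gene length lay within the interval of its share of peaks, and with counts this small a sizeable difference would not have been detectable. Of 97 gene names in the study's list of transcripts altered in the *Lhx5* mutant, 80 were found as protein-coding genes with 0.675% of the summed length. Of these, 0 were around a peak or were named downstream of one of the 215 peaks, also when 90 names with a RefSeq name or synonym were compared. For the peaks outside genes no such count is given here. The study itself reported the motif in binding sites of *Lmo1*, *Tbx3* and *Foxb2*, which are on its mutant list. From luciferase assays it proposed them as possible direct targets.

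**Figure D4:**
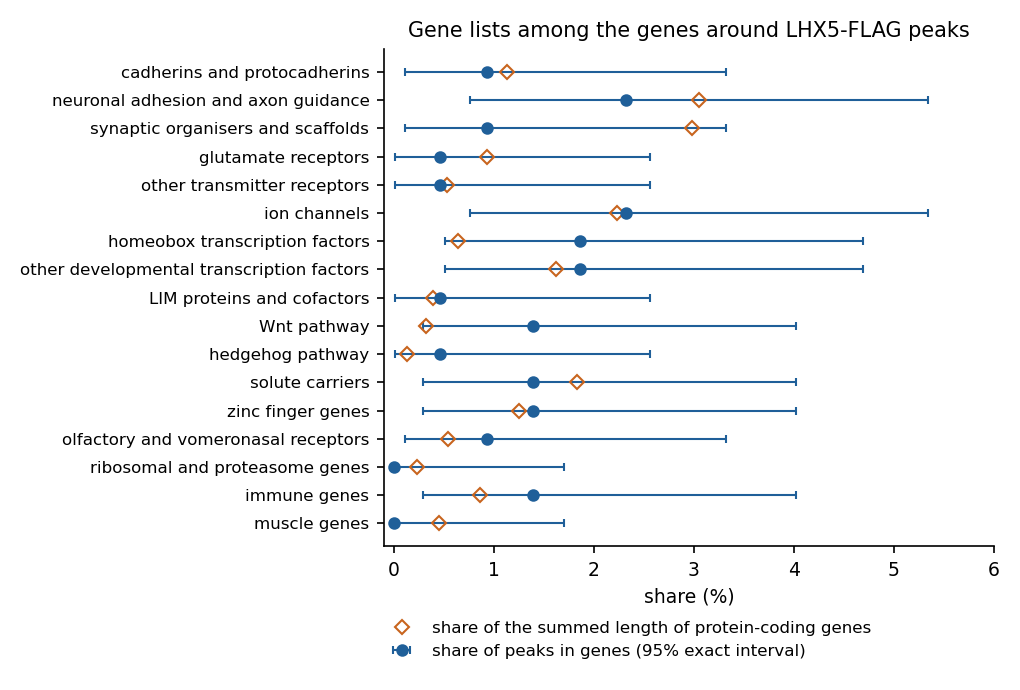
Share (percent) of the 215 peaks whose overlapped gene belonged to each of 17 lists, with 95% exact binomial intervals, and share of the summed length of protein-coding genes held by the list (diamonds). Homeobox genes stood at 1.86% of peaks and 0.641% of length, synaptic genes at 0.930% and 2.98%, and every diamond lay within its interval.

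The peaks with the most sites lay in genes of varied roles. After *Prph* (9), *Phactr2* (8), *Vnn1* (7), *Zfhx4* (6) and *Rbl1* (6) came 7 peaks with 5 sites each. Of these the longest 5 were in *Slc8a1*, *Phyh* (an enzyme of peroxisomal fatty acid oxidation), *Cass4* (a Cas adaptor of cell adhesion), *Coro2b* (an actin-binding coronin) and *Eif2s3x* (a subunit of a translation factor), and the others were in *Ttll11*, a tubulin-modifying ligase, and *Spon1*, the matrix protein F-spondin. GC content of these 12 peaks ranged from 30.7% to 43.3%.

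The gene around a peak was usually not the gene the list assigned to it. This follows in part from the method of assignment, which took the nearest downstream gene. A gene whose starts all lay behind the peak could not be named. The column of downstream genes named another gene for 164 of 215 peaks, or 76.3% (70.0% to 81.8%), and the overlapped gene for 51. In all 215 cases the start of the named gene lay ahead of the peak in the direction of transcription. Accordingly, for the 51 peaks the named start was a later start inside the overlapped gene, and for 0 of them was it the first annotated one. Among exonic peaks another gene was named for 35 of 37, and among intronic peaks for 129 of 178. An annotated start of the gene around the peak, taken in either direction, was nearer than the named start for 135 of the 164 (82.3%, 75.6% to 87.8%). The named start could only lie ahead of the peak, so the distances were not measured alike. The named start was a median of 97761 bp away in these 164, with 81 over 100 kb, and the own start a median of 34876 bp. For the 51 peaks the named start was a median of 21577 bp away, and the motif was present in 16 of 51 and in 55 of 164.

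The gap was widest for *Gm10801*, where the named gene *Rag2*, a recombinase of lymphocytes, started 2962164 bp away from a peak 316 bp from a start of the gene it overlapped. *Pkia*, an inhibitor of protein kinase A, was named for the *Zfhx4* peak at 2101618 bp, while the nearest *Zfhx4* start was at 23314 bp. The *Cd34* peak was assigned to *Camk1g* at 1582574 bp with its own start at 14050 bp. Among other peaks with the motif, *Dpyd*, of pyrimidine breakdown, was assigned to *Snx7* at 1194927 bp, *Csmd1* to BB014433 at 1076895 bp and *Chl1* to its relative *Cntn6* at 866452 bp. For these 3 the own start was at 65286, 235481 and 115462 bp. The overlapped gene was named at short distance for *March7* (154 bp), *Rasd2* (274 bp), *Cass4* (1304 bp) and *Lrp6* (3170 bp). Of the 224 overlapped genes, 168 were not the downstream gene of any of the 545 peaks, and the same held for 52 of the 72 overlapped genes with a motif peak, *Prph*, *Phactr2*, *Zfhx4*, *Rora* and *Chl1* among them.

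**Figure D5:**
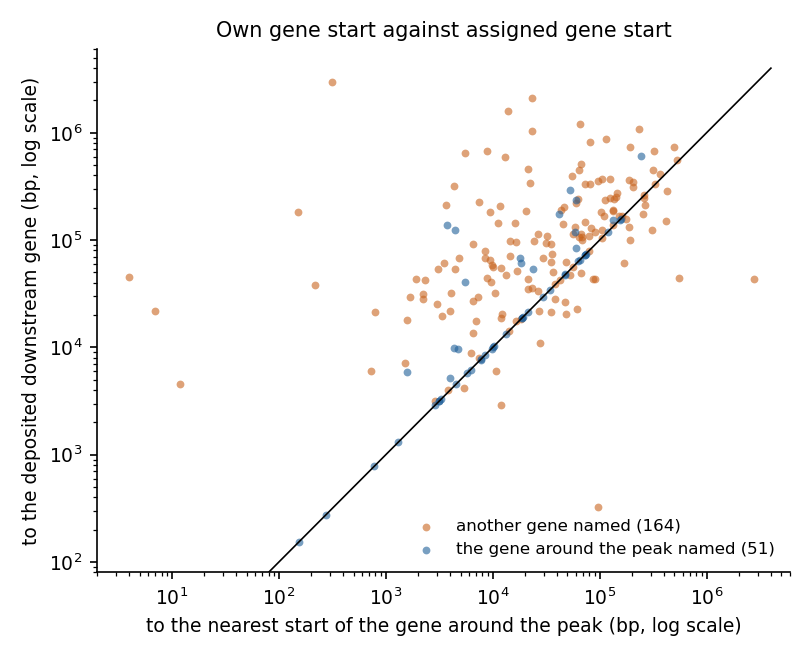
Distance (bp, log scale) from the middle of each of the 215 peaks to the start of the deposited downstream gene, against the distance to the nearest start of the longest gene around the peak, with the line of equality. For 152 peaks the own start, taken in either direction, was nearer than the named one, which could only lie ahead. Points of peaks assigned to the gene around them (51) lay on or above the line.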

How the data were processed

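Anti-FLAG ChIP-Seq libraries and inputs were made from Neuro2a cells with LHX5-FLAG or FLAG alone, and samples were grouped by their labels. Per the methods, the authors aligned reads with Bowtie (mm9) and ran MACS with the input as control, M-FOLD 10 and a cutoff of p = 1e-05 for peaks. They annotated the peaks with PeakAnalyzer 1.4, which assigned each to the nearest downstream gene. Versions of Bowtie and MACS, duplicate handling and multiply mapped reads are not given in the sources used here. The files as deposited hold peak positions and distances (bp), with no score or signal.

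Sequences and genes were read from NCBIM37 and GENCODE mouse release M1. The column of overlapped genes matched this annotation for 542 of 545 peaks; 3 peaks with an empty column overlapped an annotated gene. Overlap was 1 bp or more. For a peak over several genes the longest was used. Shares have exact binomial intervals (95%) and were compared with two-sided Fisher's exact tests, adjusted by Benjamini-Hochberg over 8 tests (threshold 0.05). Procedures were tested on simulated data. The peaks, gene lists, tests and named genes were chosen with earlier results of these data known. Named were genes with 2 or more peaks or several genes per peak, the 10 peaks with most sites, list members, the longest and shortest genes, exonic or promoter peaks, overlaps with FLAG-only peaks, and peaks assigned to their own gene. Others (*March7*, *Rasd2*, *Dpyd* and the far assignments) were chosen after their values were seen. The peaks whose sequences are shown were picked by hand rather than by this rule. Some genes that the rule names are not reported here. Python 3.11.15, scipy 1.17.1, pandas 2.3.3, numpy 2.4.6 and pysam 0.24.0 were used.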

Additional observations from a re-analysis of the deposited data

How the results depend on the processing

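Shares are given as differences in percentage points. Of 61 alternatives to 9 tested comparisons, 53 kept direction and side of the threshold, and 5 alternatives to 3 values without a test stayed within the interval of the value. The 53 include the counting of starts from 0 for peak length and crowding, which could not change the result. They also include crowding with only the first peak of each group within 100 kb kept. There, neighbours were still counted in the whole list, so this alternative did not test crowding. With genes of any type counted, the TTAA run gained a call (-7.81, Fisher's exact test, adjusted p = 0.0449) and the crowding of peaks lost its call (-4.42). Crowding also lost its call within 10 kb (-2.10), within 1 Mb (-9.76) and without peaks of mostly repeated words (-4.38, chosen after seeing the data). The GC difference lost its call when split at the lower quartile (8.48), and the exonic motif difference when limited to coding sequence (-20.8). The share of peaks in genes between the lists turned direction without peaks on small RNA genes (-7.54). All adjusted p-values come from two-sided Fisher's exact tests. The causes were not tested. The motif comparison inside against outside genes kept an adjusted p above the threshold in every alternative run, so it was never called. Counting starts from 0 was run for 5 comparisons of peaks inside and outside genes. It changed no call for the motif, the TTAA run and the GC content. For peak length and crowding it could not change the result. Peak strength, peak-calling cutoff and depth could not be varied from the lists, and no replicate could be left out.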
